A study of Mus musculus with 7 samples.

Results

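The 49 genes described here encode proteins that run cell division from entry into mitosis to the separation of the daughter cells. They were taken by gene name from count tables of 22738 gene rows, and each has a known role in division. The genes were sorted by role into 6 classes. There were 8 genes of mitotic kinases, cyclins and the anaphase-promoting complex, 4 of the chromosomal passenger complex, 12 of the kinetochore and its checkpoint, 9 of the spindle, 9 of cytokinesis, and 7 of condensin and chromosome structure. All 49 passed the filter on low counts, as did 10775 genes in all. RNA was sequenced from epicardial explants, the cells that migrate out of the outer layer of embryonic heart ventricles laid on gelatin. Hearts were taken at E12.5, stayed in the wells for 48 hours and were then removed, and the cells left behind grew for 72 hours more. There were 3 libraries from embryos lacking Lmnb1 (Lmnb1-/-) and 4 from wild type embryos, all untreated and all on a mixed background of C57BL/6, 129S4Sv/Jae and 129S6/SvEvTac. Lmnb1 encodes lamin B1, a protein of the nuclear lamina, and nothing in the labels limits the deletion to 1 cell type. The labels do not say whether replicates came from separate embryos, so p-values measure the spread between these libraries.

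Mitosis starts when Cdk1, bound to a B-type cyclin, is switched on. The nuclear envelope is taken apart, condensin compacts the chromosomes, and the kinetochores on each chromosome take hold of spindle microtubules. A checkpoint holds the anaphase-promoting complex back until every kinetochore is attached, after which cyclin B and securin are destroyed and the cell is pinched into daughters. Most of these genes are transcribed in late S phase, G2 and mitosis. A pair of DNA elements is known for that timing, the cell cycle homology region (CHR), bound by MuvB complexes, and the CCAAT box, bound by NF-Y. In a mixed cell population the level of these RNAs is therefore widely read as a measure of how many cells are cycling. In these bulk libraries fewer dividing cells and less RNA per dividing cell cannot be told apart.

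Total counts ran from 1786519 to 3066936 in Lmnb1-/- libraries and from 1024898 to 2732236 in wild type libraries. Lmnb1 had 4, 2 and 4 counts in Lmnb1-/- libraries, against 463, 185, 488 and 567 in wild type libraries, as the labels require. Wild type replicates 1 and 3 were female by Xist and Y-linked genes, and the other 5 libraries were male. All 10 epicardial markers were detected, and their summed level ran from 1429 to 1738 CPM (counts scaled to a common library size with TMM factors) in Lmnb1-/- libraries and from 1699 to 2018 CPM in wild type. Among them Wt1, Aldh1a2 and Bnc1 were lower in Lmnb1-/- libraries without overlap, at log2 fold changes of -0.27, -0.36 and -0.49, and Krt8 was higher without overlap, at 0.87. The endothelial marker Kdr was also higher without overlap, at 1.40, and none of these 5 passed. Tek, the only other endothelial marker to pass the count filter, had the opposite sign, -0.50, with overlap. Of all tested genes 6.36% were higher and 6.92% were lower in Lmnb1-/- libraries without overlap. The epicardial sums overlapped between genotypes, and so did the sums of the other marker lists. The latter were 242 to 274 against 205 to 273 CPM for 8 cardiomyocyte genes. Of these, Myh7 had no count and only 3, Tnnt2, Tnni1 and Actc1, passed the count filter. For 6 endothelial genes, 2 of them past the filter, the sums were 26.4 to 40.4 against 20.7 to 48.5 CPM. For 8 macrophage genes, 5 past the filter, they were 25.7 to 406 against 45.5 to 217 CPM. For 6 erythroid genes, 3 past the filter, they were 21.9 to 245 against 18.8 to 202 CPM. Their part in the results below was not tested.

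None of the 49 mitosis genes passed the test for a difference between genotypes. In edgeR's quasi-likelihood test, with p-values adjusted over all tested genes by Benjamini-Hochberg, 0 of 49 passed an adjusted p of 0.05 in either direction. Of all tested genes 0.705% passed, 0.362% as higher in Lmnb1-/- and 0.343% as lower. The smallest adjusted p was 0.238, for Spc25. At an unadjusted p under 0.05, 2 members were higher in Lmnb1-/- explants, Spc25 and Kif22, and 0 were lower, while 6.2% of all tested genes were higher and 7.43% were lower by that measure. DESeq2, limma voom and edgeR's exact test also called 0 members, each with 2 at an unadjusted p under 0.05. The log2 fold changes, Lmnb1-/- over wild type, ran from -0.52 for Ube2c to 0.51 for Spc25. Their median was 0.16, against -0.02 over all tested genes, and 40 of 49 were above 0, as were 47.6% of all tested genes.

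For 48 of the 49 members the 95% interval of the fold change lay within 2-fold of no change in either direction, as it did for 80.8% of all tested genes. The exception was Ube2c, with an interval of -1.32 to 0.28 on the log2 scale. For 19 members the interval lay within 1.5-fold, as it did for 4835 of all 10775 tested genes. For the mitotic kinase gene Cdk1 the interval of the ratio ran from 0.858 to 1.61.

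**Figure D1:**
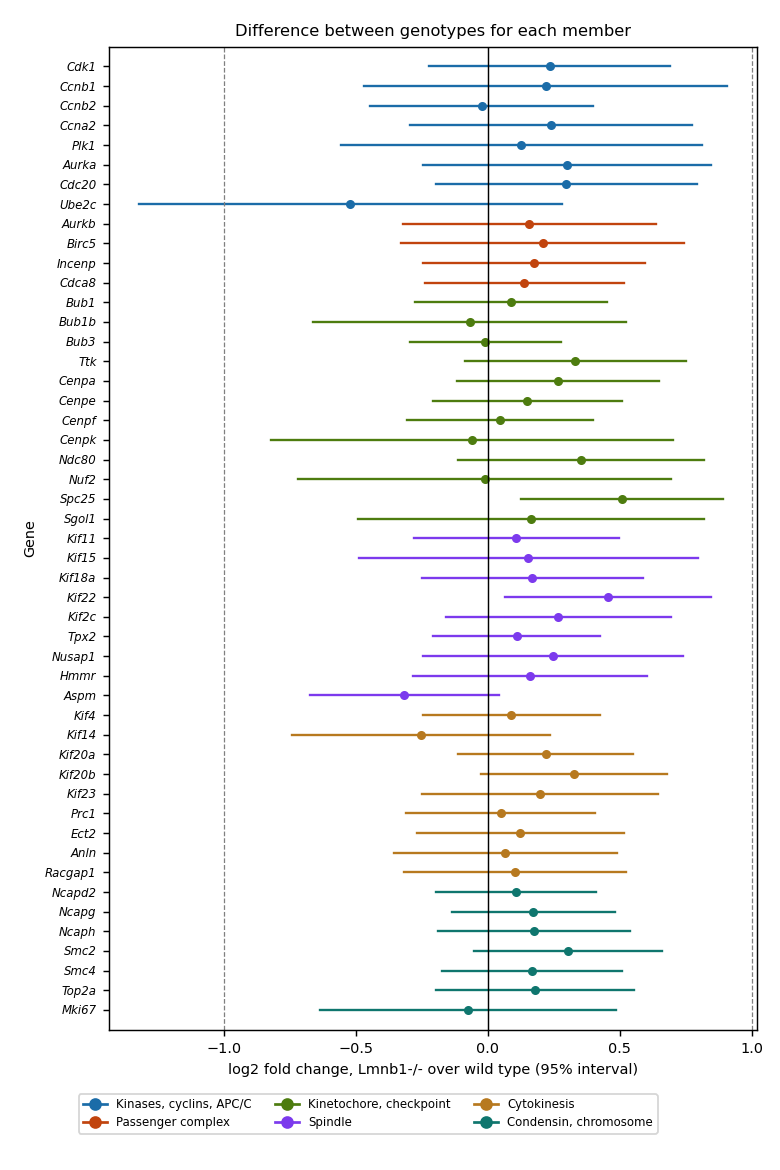
Log2 fold change of each of the 49 members (horizontal axis, Lmnb1-/- over wild type), with bars for the 95% interval from edgeR's quasi-likelihood fit, colours for the 6 classes and dashed lines at a 2-fold change. Points lie between -0.52 and 0.51, 40 of 49 to the right of 0, and of all the bars Ube2c alone crosses a dashed line.

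Most of these genes with a promoter window held the pair of elements known for mitotic genes. RefSeq windows on GRCm38.p6, from 250 bases before to 50 after each gene start, were found for 43 of the 49 members, Sgol1 under its current symbol. Ccna2, Aurkb, Incenp, Tpx2, Kif20a and Smc4 had no entry. The CHR motif TTTGAA was searched on both strands, and 33 of the 43 genes (76.7%) held it, against 20.2% of all 27025 genes with a window. In 29 of the 33 a CHR began within 50 bases of the gene start. That count was not made for other genes, so how particular this placement is cannot be told. CCAAT, also on both strands, was in 33 of 43 genes (76.7%), against 41.1% of all genes. Both motifs occurred in 28 genes (65.1%), against 7.97% of all genes. The variant TTCGAA was in 4 members (9.30%), against 1.80% of all genes. Nuf2, Kif18a, Nusap1, Ncaph and Birc5 held none of the 3 motifs in this window. DNA replication genes, which are transcribed earlier in the cycle, held a CHR in 4 of 34 genes (11.8%) and CCAAT in 20 of 34 (58.8%). Among mitosis genes outside the 49, a CHR was in 35.7% of kinetochore, 36.7% of spindle and centrosome, and 38.5% of cohesin and condensin genes. It was in 17.9% of kinase and anaphase-promoting complex genes, 15.8% of cytokinesis genes and 41.2% of regulators of mitotic transcription. Both motifs were in 0% (cytokinesis) to 35.3% (regulators) of the genes of these lists. A match shows only that the letters are there.

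**Figure D2:**
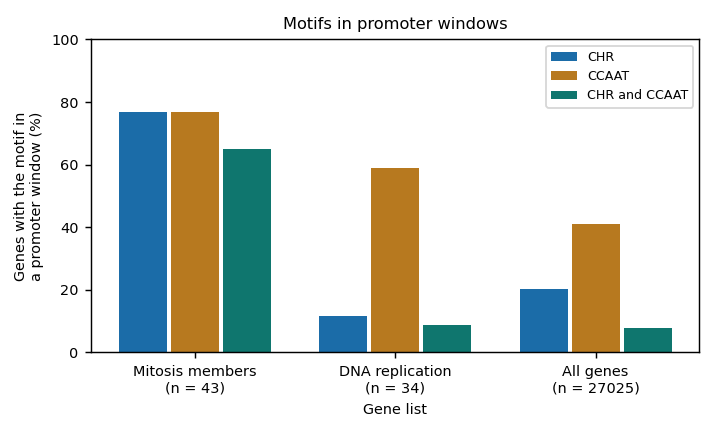
Share of genes (vertical axis, percent) with a CHR, a CCAAT box or both in a RefSeq promoter window, for 43 mitosis members, 34 DNA replication genes and all 27025 genes. CHR reaches 76.7% in the members, 11.8% in replication genes and 20.2% in all genes, and the bars for both motifs follow it at 65.1%, 8.82% and 7.97%.

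Stretches of 150 bases that end just before the gene start are shown for 5 members from different classes, to let the spacing of the elements be seen. Capitals mark CHR (TTTGAA, or TTCAAA where it lies on the other strand) and CCAAT (or ATTGG), which nowhere overlapped here. All 5 genes lie on the minus strand, and the sequences are written 5′ to 3′ along the gene. Coordinates are chr10:69352913-69353062 for Cdk1, chr4:124936918-124937067 for Cdca8, chr2:69206214-69206363 for Spc25, chr7:127042421-127042570 for Kif22 and chr11:99024190-99024339 for Top2a.
Cdk1: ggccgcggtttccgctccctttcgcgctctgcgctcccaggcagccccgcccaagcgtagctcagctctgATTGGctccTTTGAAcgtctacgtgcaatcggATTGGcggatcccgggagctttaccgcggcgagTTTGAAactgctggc
Cdca8: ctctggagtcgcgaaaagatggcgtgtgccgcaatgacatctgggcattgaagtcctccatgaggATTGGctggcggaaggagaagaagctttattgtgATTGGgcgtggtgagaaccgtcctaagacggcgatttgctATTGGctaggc
Spc25: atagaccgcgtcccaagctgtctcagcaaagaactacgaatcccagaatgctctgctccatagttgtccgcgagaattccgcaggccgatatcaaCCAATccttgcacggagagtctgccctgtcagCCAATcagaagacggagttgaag
Kif22: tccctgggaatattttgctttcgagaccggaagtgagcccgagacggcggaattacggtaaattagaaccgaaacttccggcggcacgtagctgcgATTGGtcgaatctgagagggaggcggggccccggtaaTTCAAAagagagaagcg
Top2a: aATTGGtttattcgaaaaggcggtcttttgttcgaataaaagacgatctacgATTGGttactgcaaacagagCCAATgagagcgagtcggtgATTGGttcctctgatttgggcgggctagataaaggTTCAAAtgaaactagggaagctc
Cdk1 showed 2 CHR and 2 CCAAT elements in this stretch, Kif22 1 of each, and Top2a 1 CHR with 4 CCAAT boxes. The variant TTCGAA is not capitalised, and in Top2a it began at -140 and -120 from the gene start. Cdca8 had 3 CCAAT boxes and Spc25 had 2, and their CHR lay after the gene start, outside the stretch shown. Members with a CHR in their window had a median log2 fold change of 0.14 in Lmnb1-/- explants, and the 10 without had 0.17.

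Levels per length placed the members over a wide range. In CPM per kb of transcript the lowest wild type mean was 2.67 for Kif14 and the highest was 80.0 for Top2a, with a median of 15.9. Top2a, Anln, Bub3, Ccna2 and Cdk1 were the 5 most abundant per length, with 91.0, 68.3, 60.2, 61.1 and 60.1 CPM per kb in Lmnb1-/- explants and 80.0, 65.1, 60.2, 51.0 and 50.2 CPM per kb in wild type. Kif14, Sgol1, Cenpk, Plk1 and Cenpf were the 5 least abundant in wild type, at 2.67 to 6.17 CPM per kb. The fewest counts in any library were 7, for Cenpk. Of the low members, Plk1, Ube2c and Cenpk rest on 178, 122 and 82 counts over all 7 libraries, so their values carry a large counting error.

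Among the kinases, cyclins and destruction machinery, Cdk1 was at 175, 170 and 162 CPM in Lmnb1-/- libraries, against 193, 85.8, 135 and 152 CPM in wild type libraries. The Lmnb1-/- values lay close together, below wild type replicate 1 and above the other wild type libraries, and the log2 fold change was 0.23 (SE 0.20). Ccna2, encoding cyclin A2, the partner that brings Cdk1 and Cdk2 through S and G2 phase, was at 157, 141 and 156 CPM in Lmnb1-/- libraries, against 188, 82.7, 102 and 133 CPM in wild type libraries. It showed the same layout, with wild type replicate 1 above and the other wild type libraries below all Lmnb1-/- libraries. Cdc20, which activates the anaphase-promoting complex, was at 77.2, 63.9 and 58.1 CPM in Lmnb1-/- libraries, against 81.3, 37.2, 48.6 and 46.0 CPM in wild type libraries. All but wild type replicate 1 were below the Lmnb1-/- range, and the log2 fold change was 0.30 (SE 0.23). Ube2c, the ubiquitin-conjugating enzyme of that complex, had the lowest log2 fold change of all members, -0.52 (SE 0.37). It was at 8.04, 7.29 and 4.11 CPM in Lmnb1-/- libraries, against 13.1, 13.4, 6.78 and 6.33 CPM in wild type libraries, and the ranges overlapped. The cyclin B genes Ccnb1 and Ccnb2 had log2 fold changes of 0.22 and -0.02, and the spindle pole kinase Aurka and the polo-like kinase Plk1 had 0.30 and 0.13. No member of this class passed, and the smallest adjusted p was 0.577 in edgeR's test. The class median was 0.23.

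The 4 genes of the chromosomal passenger complex, which corrects faulty attachments and later marks the midzone, had log2 fold changes between 0.14 and 0.21, with a median of 0.17. Incenp, the scaffold of the complex, was at 37.3, 40.4 and 36.5 CPM in Lmnb1-/- libraries, against 40.9, 41.3, 23.3 and 32.0 CPM in wild type libraries. Birc5, encoding survivin, was at 36.7, 37.6 and 33.9 CPM in Lmnb1-/- libraries, against 47.8, 17.6, 28.2 and 27.0 CPM in wild type libraries. In both genes the Lmnb1-/- libraries fell within the wild type range. Cdca8, encoding borealin, was at 29.9, 28.0 and 26.2 CPM in Lmnb1-/- libraries, against 28.3, 22.7, 21.8 and 28.7 CPM in wild type libraries, again with overlap. The kinase subunit Aurkb had a log2 fold change of 0.16 (SE 0.22). The smallest adjusted p of the class was 0.738 in edgeR's test.

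Kinetochore and checkpoint genes held the member with the smallest p. Spc25, a subunit of the NDC80 complex that grips microtubules, was at 43.1, 39.3 and 34.9 CPM in Lmnb1-/- libraries, against 33.5, 25.8, 29.0 and 21.5 CPM in wild type libraries. It was the 1 member whose ranges did not overlap, and it was higher in Lmnb1-/-. Among all tested genes 6.36% were higher and 6.92% were lower in Lmnb1-/- libraries without overlap. Its log2 fold change was 0.51 (SE 0.18, 95% interval 0.12 to 0.89), with an adjusted p of 0.238 in edgeR's test. Its partners in the complex had log2 fold changes of 0.35 for Ndc80, -0.01 for Nuf2 and -0.08 for Spc24, which is not among the 49. Spc24 was at 18.3, 17.4 and 14.9 CPM in Lmnb1-/- libraries, against 19.1, 13.4, 18.8 and 18.5 CPM in wild type libraries. Its ranges overlapped. Ndc80 was at 53.7, 37.0 and 39.1 CPM in Lmnb1-/- libraries, against 47.0, 22.7, 30.5 and 33.3 CPM in wild type libraries. Nuf2 was at 33.8, 33.7 and 12.3 CPM in Lmnb1-/- libraries, against 35.2, 18.6, 28.2 and 23.6 CPM in wild type libraries, so that Lmnb1-/- replicate 3 was the lowest of all 7 for this gene. In all 4 genes of the complex replicate 1 was the highest library of its genotype.

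Ttk, encoding the checkpoint kinase Mps1, was at 42.8, 43.2 and 32.9 CPM in Lmnb1-/- libraries, against 42.2, 24.8, 30.1 and 27.0 CPM in wild type libraries. Wild type replicate 1 again stood among the Lmnb1-/- libraries, and the log2 fold change was 0.33 (SE 0.19). Cenpa, the histone variant that marks centromeres, was at 53.7, 34.8 and 47.8 CPM in Lmnb1-/- libraries, against 38.7, 31.0, 36.9 and 43.9 CPM in wild type libraries. The checkpoint gene Bub3 was at 142, 132 and 126 CPM in Lmnb1-/- libraries, against 164, 109, 136 and 124 CPM in wild type libraries. Its log2 fold change of -0.01 (SE 0.13) had the tightest error of all members, with an interval of -0.30 to 0.28. The other checkpoint kinases Bub1 and Bub1b had log2 fold changes of 0.09 and -0.07, the motor Cenpe 0.15, and Cenpf, Cenpk and the cohesin protector Sgol1 0.04, -0.06 and 0.16. The class median was 0.12, with 8 of 12 above 0.

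Among spindle genes, Kif22, a chromosome-bound kinesin, was at 51.8, 39.8 and 55.5 CPM in Lmnb1-/- libraries, against 45.7, 28.9, 32.4 and 34.6 CPM in wild type libraries. Its log2 fold change was 0.46 (SE 0.18), with an adjusted p of 0.294 in edgeR's test, and the ranges overlapped by way of wild type replicate 1. Aspm, a spindle pole protein, had the opposite sign, -0.32 (SE 0.17, adjusted p = 0.432 in edgeR's test). It was at 88.4, 93.1 and 82.7 CPM in Lmnb1-/- libraries, against 149, 90.9, 91.5 and 104 CPM in wild type libraries. Here wild type replicate 1 lay far above, and the other libraries were close together. Tpx2, which targets Aurora A to the spindle, was at 146, 132 and 112 CPM in Lmnb1-/- libraries, against 154, 107, 107 and 114 CPM in wild type libraries. Hmmr, a microtubule-binding hyaluronan receptor, was at 136, 92.0 and 82.2 CPM in Lmnb1-/- libraries, against 124, 82.7, 81.3 and 83.9 CPM in wild type libraries. In both genes replicate 1 of each genotype was the highest of its group. The kinesin genes Kif11, Kif15, Kif18a and Kif2c and the microtubule bundler Nusap1 had log2 fold changes of 0.11 to 0.27. The class median was 0.16.

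Genes of cytokinesis had a class median of 0.10. Anln, encoding the contractile ring scaffold anillin, was at 344, 339 and 261 CPM in Lmnb1-/- libraries, against 409, 255, 229 and 307 CPM in wild type libraries. The Lmnb1-/- values all lay within the wild type range. Kif20b, a kinesin of the midzone and midbody, was at 89.7, 71.8 and 67.8 CPM in Lmnb1-/- libraries, against 76.1, 53.7, 50.1 and 63.7 CPM in wild type libraries. It had the smallest p of its class, 0.33 on the log2 scale (SE 0.16), at an adjusted p of 0.404 in edgeR's test. Kif20a, which brings Aurora B and Plk1 to the midzone, was at 185, 160 and 134 CPM in Lmnb1-/- libraries, against 174, 121, 115 and 138 CPM in wild type libraries. Kif14, another midbody kinesin, was at 20.6, 20.2 and 18.5 CPM in Lmnb1-/- libraries, against 33.1, 22.7, 18.8 and 19.8 CPM in wild type libraries, and its log2 fold change was -0.25 (SE 0.23). Ranges overlapped in both of these kinesin genes. The centralspindlin pair Kif23 and Racgap1, the exchange factor Ect2, the bundling protein Prc1 and the kinesin Kif4 had log2 fold changes of 0.05 to 0.20.

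Among condensin and chromosome structure genes, Top2a, the topoisomerase that untangles sister chromatids, was at 471, 502 and 452 CPM in Lmnb1-/- libraries, against 550, 303, 360 and 459 CPM in wild type libraries. Smc2, a core subunit of condensin, was at 202, 211 and 168 CPM in Lmnb1-/- libraries, against 209, 131, 127 and 158 CPM in wild type libraries. Its log2 fold change of 0.30 (SE 0.16, adjusted p = 0.450 in edgeR's test) was the largest of the class, and only wild type replicate 1 reached into the Lmnb1-/- range. Its partner Smc4 was at 268, 236 and 189 CPM in Lmnb1-/- libraries, against 265, 177, 181 and 199 CPM in wild type libraries. Ncapg, a condensin I subunit, was at 71.4, 65.6 and 58.6 CPM in Lmnb1-/- libraries, against 68.7, 51.7, 55.0 and 55.2 CPM in wild type libraries. All 5 condensin members had log2 fold changes above 0, from 0.11 for Ncapd2 to 0.30. Mki67, whose protein coats mitotic chromosomes and is the standard marker of cycling cells, had -0.07 (SE 0.24). It was at 246, 254 and 243 CPM in Lmnb1-/- libraries, against 368, 178, 190 and 299 CPM in wild type libraries, a narrow set within a wide one. The class median was 0.17.

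**Figure D3:**
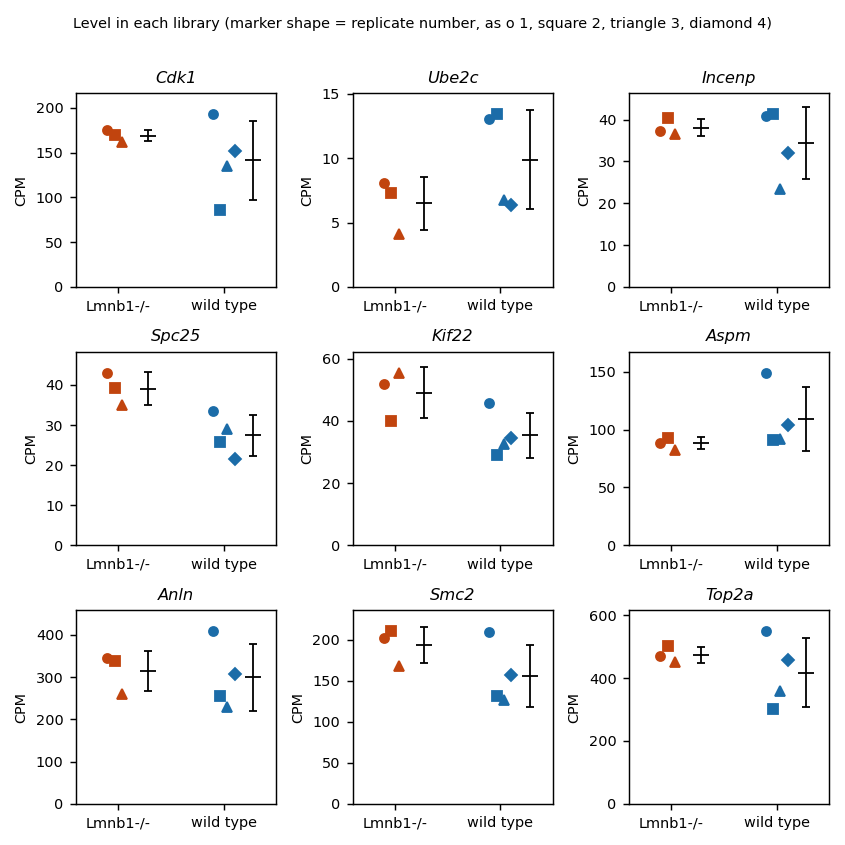
CPM in each library for 9 members (vertical axes from 0), Lmnb1-/- to the left and wild type to the right, with marker shapes for replicate numbers and bars for the mean and SD (n = 3 and 4). Only in Spc25 do the 2 sets of points not overlap, and wild type replicate 1 (circle) is the highest or next to highest wild type point in every panel.

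The medians of the 6 classes ran from 0.10 to 0.23, and differences between classes were not tested. Leaving out each library in turn gave medians of 0.10 to 0.45 for kinases and cyclins, 0.03 to 0.31 for the passenger complex and 0.03 to 0.26 for kinetochore genes. The same gave 0.09 to 0.34 for spindle genes, 0.00 to 0.30 for cytokinesis genes and 0.11 to 0.28 for condensin and chromosome genes. Within kinetochore genes the log2 fold changes ran from -0.07 to 0.51 and within spindle genes from -0.32 to 0.46.

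What the members shared more visibly was their variation among wild type libraries. Wild type replicate 1 was the highest of the wild type libraries for 42 of the 49 members, a place it took for 26.3% of all tested genes. Wild type replicate 2 was the lowest for 27 members and replicate 3 for 16, against 29.7% and 20.2% of all tested genes. Among the Lmnb1-/- libraries, replicate 3 was the lowest for 34 members, against 35.3% of all tested genes. Replicate 1 was the highest of them for 27 members, against 33.65% of all tested genes. The members that broke the wild type order were few. Plk1, Ube2c, Incenp and Cenpk were highest in wild type replicate 2, and Cenpa, Cdca8 and Kif18a in replicate 4.

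**Figure D4:**
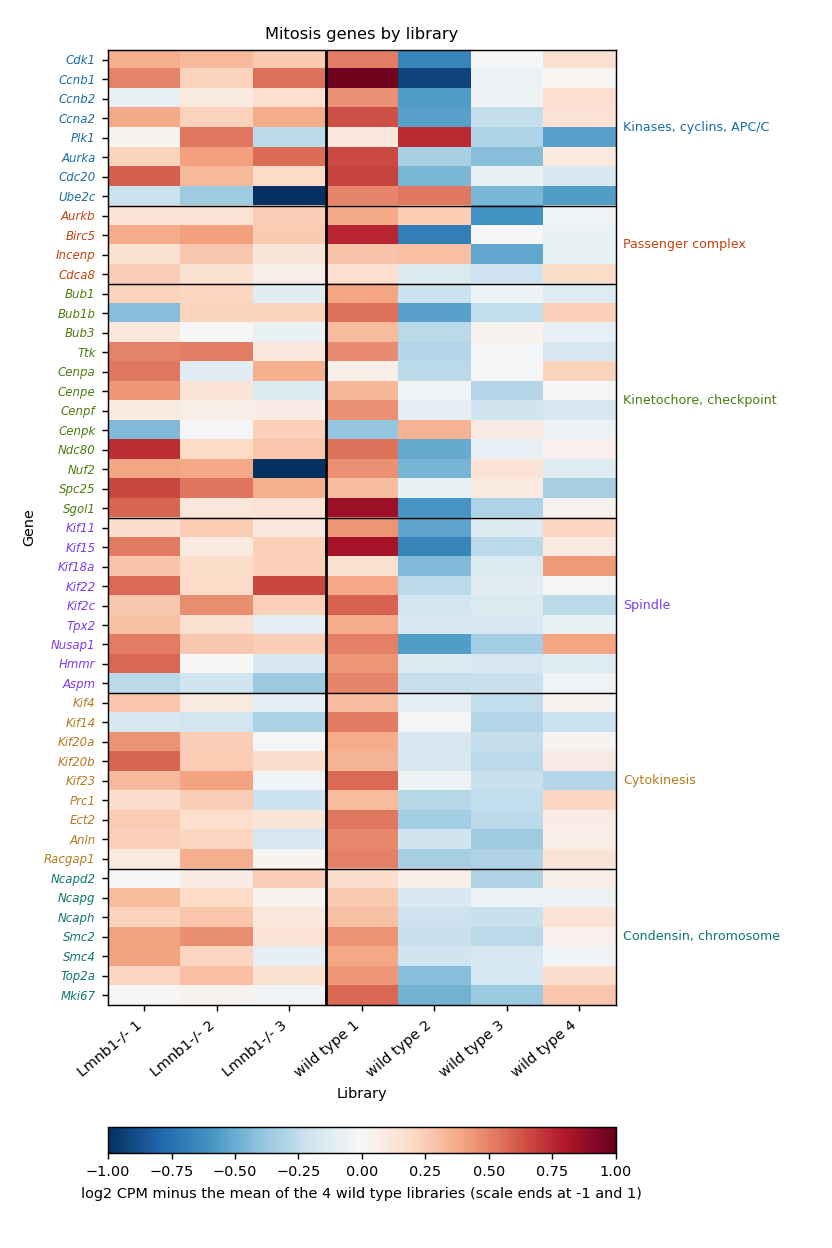
Level of each member (rows, coloured by class) in each library (columns, Lmnb1-/- left of the black line), as log2 CPM minus the mean of the 4 wild type libraries. The column of wild type replicate 1 is red in nearly all rows and that of replicate 2 blue in most, while the Lmnb1-/- columns are mostly paler red.

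The mean level of all members, in log2 CPM relative to the wild type mean, was 0.26, 0.20 and 0.06 in Lmnb1-/- replicates 1 to 3, against 0.42, -0.24, -0.19 and 0.00 in wild type replicates 1 to 4. All 3 Lmnb1-/- libraries thus lay inside the wild type range. The mean was 0.17 ± 0.10 in Lmnb1-/- (SD, n = 3) and 0.00 ± 0.30 in wild type (SD, n = 4). Kinase and cyclin genes were at 0.22, 0.22 and 0.09 in Lmnb1-/- libraries, against 0.54, -0.28, -0.19 and -0.07 in wild type libraries. In all 6 classes wild type replicate 1 was above every Lmnb1-/- library. In the kinase, passenger complex, kinetochore and spindle classes the other wild type libraries were all below the Lmnb1-/- range. The median coefficient of variation of a member was 11.6% among Lmnb1-/- libraries and 26.1% among wild type libraries, against 12.8% and 17.6% over all tested genes, where counting alone would give about 9.32% for a wild type member.

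**Figure D5:**
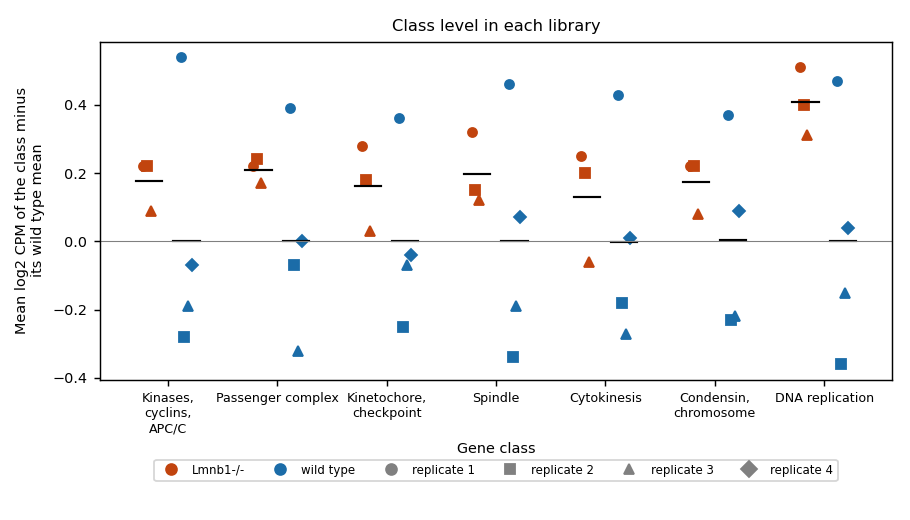
Mean log2 CPM of each gene class minus its wild type mean (vertical axis) in each library, Lmnb1-/- in orange left of wild type in blue, with lines at the group means and marker shapes for replicate numbers. In the 6 mitosis classes wild type replicate 1, between 0.36 and 0.54, is above all Lmnb1-/- libraries, and in DNA replication genes it lies among them.

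How far the genotypes lay apart depended on which libraries were compared. Without wild type replicate 1 the median log2 fold change of the members was 0.30, with 45 of 49 above 0. In that fit 19 members were higher at an unadjusted p under 0.05 and 0 were lower, where 8.66% of all tested genes were higher and 9.75% were lower. Of the members 0 passed, and the smallest adjusted p was 0.0648 in edgeR's test, for Smc2. This library was the highest wild type library for 42 of the 49 members, so leaving it out raises their fold changes by itself. When any other library was left out, 0 to 3 members had an unadjusted p under 0.05 in edgeR's test. Without wild type replicate 3 the median was 0.06 and without wild type replicate 2 it was 0.09. Within the male libraries alone, 3 Lmnb1-/- against wild type replicates 2 and 4, it was 0.27. There 12 members were higher at an unadjusted p under 0.05 and 0 were lower, where 7.63% of all tested genes were higher and 8.36% were lower. Of the members 0 passed, with a smallest adjusted p of 0.115 in edgeR's test, for Spc25. Sex as a covariate, which rests on the same male wild type libraries, gave 0.27 too. Each table carries a library number, and the labels give no batch. With libraries of neighbouring numbers taken as a block, the median was 0.00, with 25 of 49 above 0, and the cytokinesis, spindle and kinase classes had medians of -0.09, -0.06 and -0.01. Wild type replicates 2 and 3 form a block without any Lmnb1-/- library, so they carry no weight in these fold changes. The members' mean level was lowest in these libraries, at -0.24 and -0.19. Lmnb1-/- replicate 1 and wild type replicate 1 have neighbouring numbers, and 14 of 49 members were higher in the Lmnb1-/- library of that pair, with a median log2 difference of -0.14. Lmnb1-/- replicates 2 and 3 are grouped with wild type replicate 4, and there 34 of 49 were higher in Lmnb1-/-, with a median of 0.09. Mki67 was lower in Lmnb1-/- in both, at 246 against 368 CPM and at 254 and 243 against 299 CPM. Spc25 was higher in both, at 43.1 against 33.5 CPM and at 39.3 and 34.9 against 21.5 CPM. Of all 10775 tested genes 5227 were higher in the Lmnb1-/- library of the first pair and 5321 in the Lmnb1-/- libraries of the other group. The first pair sets a male Lmnb1-/- library against a female wild type one, while the other group is all male, so sex and library number cannot be told apart there.

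Mitosis genes outside the 49 had a similar median, but their mean level varied less among wild type libraries. Of 164 others found in the tables, 161 were tested, 0 passed, and their median log2 fold change was 0.13, with 116 above 0. At an unadjusted p under 0.05, 17 were higher in Lmnb1-/- and 4 were lower, against 6.2% and 7.43% of all tested genes. Without overlap, 15 of the 164 were higher and 4 lower, against 6.36% and 6.92% of all tested genes. Their mean level was 0.21, 0.14 and 0.06 in Lmnb1-/- libraries, against 0.20, -0.11, -0.07 and -0.02 in wild type libraries. Wild type replicate 1 was thus not above every Lmnb1-/- library. Other kinetochore genes had a median of 0.24 over 33 genes, cohesin and other condensin genes 0.20 over 18, spindle and centrosome genes 0.13 over 34, kinase and anaphase-promoting complex genes 0.08 over 34, and other cytokinesis genes 0.04 over 22. Among the 2 genes of smallest p in each list, in the same order and with their log2 fold changes, were Zwint at 0.29, Stag2 and Pttg1 at 0.37 and 0.56, Haus3 and Ckap2 at 0.46 and 0.58, Nek7 and Gtse1 at 0.36 and 0.70, and Myh10 and Mki67ip at -0.76 and 0.36. These lists are loose: Gtse1 encodes neither a kinase nor a subunit of the anaphase-promoting complex, and Mki67ip is not an established cytokinesis gene. Pttg1, encoding securin, was at 30.6, 29.2 and 27.2 CPM in Lmnb1-/- libraries, against 17.8, 19.6, 19.2 and 21.9 CPM in wild type libraries. Unlike nearly all members, it was not high in wild type replicate 1, and the genotypes did not overlap, though its adjusted p was 0.168 in edgeR's test. Myh10, encoding nonmuscle myosin IIB, had the smallest adjusted p of these genes, 0.0687 in edgeR's test. Among 20 tested regulators of mitotic transcription the median was 0.06. The activators Foxm1 and Mybl2, singled out with their values known, stood at 0.00 and -0.20 on the log2 scale, and the MuvB genes Lin52 and Lin54 had 0.73 and 0.33, with adjusted p-values of 0.370 and 0.451 in edgeR's test.

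DNA replication genes stood further from 0 than the mitosis genes, by description. The median log2 fold change of 43 replication genes was 0.36, with 39 above 0 and 0 passing. At an unadjusted p under 0.05, 16 were higher and 0 were lower, against 6.2% and 7.43% of all tested genes. The replication genes' mean level was 0.51, 0.40 and 0.31 in Lmnb1-/- replicates 1 to 3, against 0.47, -0.36, -0.15 and 0.04 in wild type replicates 1 to 4. Wild type replicate 1 was high for both gene groups. With the block of neighbouring library numbers, where wild type replicates 2 and 3 carry no weight, the replication median was 0.15. The difference between replication and mitosis genes was not tested.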

How the data were processed

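Counts were deposited by the authors as 1 table per library, with gene names beside 2 columns of whole numbers that carry no heading. Per the submitters' processing notes TopHat, edgeR and the mm9 build were used; the counting program and annotation are not given in the sources used here. Per the labels, RNA was extracted with a PicoPure kit and libraries were made with TruSeq RNA v2, a kit that does not mark strand, so reads of a gene and of an antisense neighbour are mixed. The first count column was used. What the other holds is not given in the sources used here, and it holds 16.6 to 19.6% of each library's counts.

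Genes were filtered with filterByExpr, scaled by TMM and tested in edgeR 4.0.16 (quasi-likelihood, with limma 3.58.1 under R 4.3.3) for Lmnb1-/- against wild type, no covariate, with Benjamini-Hochberg adjustment over all tested genes at 0.05. Standard errors were derived from the log2 fold change and the F statistic. Class levels are means of log2 CPM with a prior count of 2. Transcript length is the median of GENCODE M21 coding transcripts. The procedure was tested on simulated counts.

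The members and lists were chosen with earlier results of these data known. Values in every library are given for the 2 members of smallest p and the 2 of highest level per length in each class, and for the 3 highest and 3 lowest fold changes. Nuf2 and Mki67 were added after their values were seen. Pttg1 and the other genes outside the members are among the 2 of smallest p in each list, apart from Foxm1, Mybl2, Spc24 and the single markers, which were singled out after their values were seen, and 1 gene that this rule names is not reported here. Alternatives were RLE factors, library totals, no filter, CPM of at least 1 in 3 libraries, DESeq2 1.42.0, limma voom, edgeR's exact test, a replicate block, sex as a covariate, male libraries, a block of neighbouring library numbers (a gap over 2 starts a new group), both count columns and leaving out each library.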

Additional observations from a re-analysis of the deposited data

Results flagged for a closer look

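In 4 of the 49 members, 1 wild type library stood apart from the other wild type libraries, by a gap past Dixon's 95% critical value for 4 samples. It was wild type replicate 1 each time, as the highest. Cenpf was at 92.6 CPM there, Kif2c at 72.2 CPM, Tpx2 at 154 CPM and Hmmr at 124 CPM. The gap to the next library made up 0.874, 0.899, 0.848 and 0.940 of the range. Chance flags about 1 in 20 such groups, and 56 groups were checked, the 49 members, the 6 classes and all members together. The members vary together, so these flags are not independent. Without this library no member passed.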

How the results depend on the processing

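No member passed under any of the alternatives run, leaving out each library included. The median log2 fold change of the members was 0.00 to 0.27 under the other alternatives and 0.06 to 0.30 when each library was left out. Among the members given with values, direction turned with the block of neighbouring library numbers in Anln (-0.13), Top2a (-0.07), Ccna2 (-0.03) and Cdca8 (-0.01), and in Bub3 with library totals (0.03), male libraries (0.18) and sex as a covariate (0.18). Leaving out each library gave -0.05 to 0.26 for Anln, -0.07 to 0.10 for Bub3 and -0.10 to 0.34 for Hmmr. The cause was not tested. Over all genes 39 were higher and 37 lower, and these counts moved to 75 and 100 with DESeq2, 88 and 105 with edgeR's exact test, and 83 and 97 with no count filter. Higher calls were 11 with sex as a covariate, and lower calls were 66 in male libraries, 20 with limma voom and 17 with both count columns summed. Leaving out each library gave 2 to 113 higher and 1 to 166 lower. Replicate numbers did not pair the libraries as a set: deviations of same-numbered libraries correlated at 0.264, -0.158 and -0.0898 across genes. Differently numbered pairs ran from -0.45 to 0.332. Pairs within a group of neighbouring library numbers were at 0.264 for replicate 1 of both genotypes. Wild type replicate 4 was at 0.193 and 0.332 with Lmnb1-/- replicates 2 and 3. With the replicate block 35 genes were higher and 42 lower, 0 members passed and the members' median was 0.15. Depth limits Cenpk, Plk1 and Ube2c most.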

Other observations

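The deposited tables hold another count column, which holds counts for 30 of the 49 members. Its median share of a member's counts is 0.466%, and it holds over 10% for 6 of them. For Ccnb1 it held 76.3%, so the cyclin B1 level above rests on the smaller part of its counts. The other 5 were Cdc20 (14.9%), Plk1 (14.4%), Mki67 (13.4%), Hmmr (12.4%) and Ube2c (10.3%). Summing both columns, Ccnb1 had 365, 186 and 226 counts in Lmnb1-/- libraries, against 355, 55, 211 and 197 in wild type libraries, and its log2 fold change was 0.24 with an adjusted p of 0.757 in edgeR's test.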
